A study of Mus musculus with 5 samples.

Results

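The mouse mitochondrial genome carries 37 genes, and all 37 were among the 52143 genes of the expression table. They were taken as every entry whose gene symbol starts with mt-, which gave 13 mRNAs, 22 tRNAs and 2 rRNAs. RNA was sequenced from colon tumors harvested on day 87 from young adult female mice, from 2 mice of the Control group (replicates 1 and 4) and 3 of the SIGLEC12 group (replicates 2, 3 and 4). All of them carried Villin1-Cre-ERT, a Cre recombinase that is active in intestinal epithelium once tamoxifen is given. The SIGLEC12 mice carried in addition a conditional knock-in of human SIGLEC12. Its product Siglec-XII belongs to a family of lectins but, per the study, cannot bind sialic acids. Both groups received tamoxifen for 5 days, azoxymethane at 10 mg/kg as the carcinogen, and cycles of 2.0% dextran sulfate sodium in which 5 days of treatment were followed by 14 days of recovery. The transgene was not analysed here, so the genotype labels were not checked against it.

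Mitochondrial DNA is copied into long RNAs from both of its strands. The tRNAs lie between most of the mRNAs and rRNAs, and their excision frees the RNAs on either side. The 13 mRNAs all encode subunits of the respiratory chain or of the ATP synthase, and the tRNAs and rRNAs serve only the ribosomes inside the organelle that translate them. Every protein that transcribes, cuts, modifies or charges these RNAs comes from the nucleus, as do most subunits of the same complexes. On GRCm38 chromosome M, 28 of the genes lay on the plus strand and 9 on the minus strand. The minus-strand genes were 8 tRNAs and mt-Nd6, a subunit of complex I.

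mt-Te and mt-Ts1, the 2 tRNAs that passed an unadjusted threshold (p of at most 0.05 with at least 2-fold, limma) as lower in SIGLEC12, and mt-Tp, the tRNA with the highest level, were all minus-strand genes. No tRNA passed after adjustment. Their sequences from GENCODE release M21 are shown in the sense of the RNA with the anticodon in capitals, together with that of mt-Tq, which was listed at 0 in both Control samples. mt-Tp carries proline (chrM:15356-15422), mt-Te carries glutamate (chrM:14071-14139), mt-Ts1 carries serine (chrM:6870-6938) and mt-Tq carries glutamine (chrM:3772-3842).
mt-Tp: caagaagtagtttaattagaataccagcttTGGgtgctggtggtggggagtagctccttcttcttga
mt-Te: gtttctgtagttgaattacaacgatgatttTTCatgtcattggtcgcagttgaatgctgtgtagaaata
mt-Ts1: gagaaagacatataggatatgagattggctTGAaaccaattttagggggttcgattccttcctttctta
mt-Tq: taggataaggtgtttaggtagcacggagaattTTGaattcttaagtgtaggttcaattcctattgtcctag

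The levels are TPM (transcripts per 1000000), which give each gene per length and relative to all other RNA listed in the sample. Nuclear protein-coding genes together held only 5.23% and 6.06% of TPM in the Control samples and 8.06% to 8.67% in the SIGLEC12 samples, so most nuclear genes stood higher in SIGLEC12 on this scale. Over the 10338 genes tested, the median log2 fold change was 0.38, and 87.2% of genes were higher on average. The classes and most of the members described singly are therefore compared on a second scale as well. There every sample was rescaled to the same nuclear protein-coding total, and that median was 0.00. With limma and Benjamini-Hochberg adjustment, 0 genes passed an adjusted p under 0.05 with at least 2-fold on either scale, and the smallest adjusted p was 0.0974 as deposited. At an unadjusted p of at most 0.05 there were 3543 genes as deposited and 1092 after rescaling. The marker lists, given only as deposited, also differed between samples. Columnar epithelium markers, 12 genes that were all detected, summed to 556.0 and 1724 TPM in Control and to 1428 to 2359 TPM in SIGLEC12. Squamous epithelium markers, 6 genes, summed to 2049 TPM in Control replicate 1 and to between 345.6 and 824.8 TPM in the other samples. Fibroblast markers, 6 genes, summed to 8.72 and 10.5 TPM in Control and to 18.0 to 57.9 TPM in SIGLEC12, with no overlap, whereas the sums of the smooth muscle markers (45.3 to 112.3 TPM) and myeloid markers (3.34 to 17.7 TPM) overlapped. No marker of the columnar, squamous, smooth muscle, fibroblast or myeloid list was at 0 in every sample. The part of tissue makeup in the results was not tested. In bulk tumor RNA, fewer cells of a type and less RNA per cell cannot be told apart.

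Summed by class, the mitochondrial mRNAs held a larger share of TPM in SIGLEC12 than in Control, but not relative to nuclear mRNA. The 13 mRNAs took 0.467% and 0.672% of TPM in the Control samples and 0.673%, 0.687% and 1.04% in the SIGLEC12 samples. The groups did not overlap, but Control replicate 4 and SIGLEC12 replicate 2 were almost level and SIGLEC12 replicate 4 stood apart at the top. The means were 0.570% ± 0.145 (SD, n = 2) and 0.799% ± 0.207 (SD, n = 3). The 2 rRNAs took 0.464% and 0.835% in Control and 0.798%, 0.758% and 0.921% in SIGLEC12, and these groups overlapped. The 22 tRNAs took 0.0456% and 0.0791% in Control and 0.0707%, 0.0634% and 0.0658% in SIGLEC12. Here both extremes were Control samples, and the group means of 0.0624% ± 0.0237 (SD, n = 2) and 0.0666% ± 0.00373 (SD, n = 3) differed by less than the Control spread.

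Set against the nuclear protein-coding total, no class stood higher in SIGLEC12. The mRNAs came to 8.94 and 11.1 TPM per 100 nuclear protein-coding TPM in Control and to 8.24, 8.53 and 11.98 in SIGLEC12. The rRNAs came to 8.88 and 13.8 in Control and to 9.78, 9.41 and 10.6 in SIGLEC12. The tRNAs came to 0.873 and 1.31 in Control and to 0.866, 0.787 and 0.759 in SIGLEC12, which put the 3 SIGLEC12 samples below both Control samples, although SIGLEC12 replicate 2 and Control replicate 1 were almost level. The ratio of summed tRNA to summed mRNA differed by -0.33 on the log2 scale between the group means, and that of rRNA to mRNA by -0.08. In both ratios the groups overlapped. These class sums are descriptions, with no test.

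**Figure D1:**
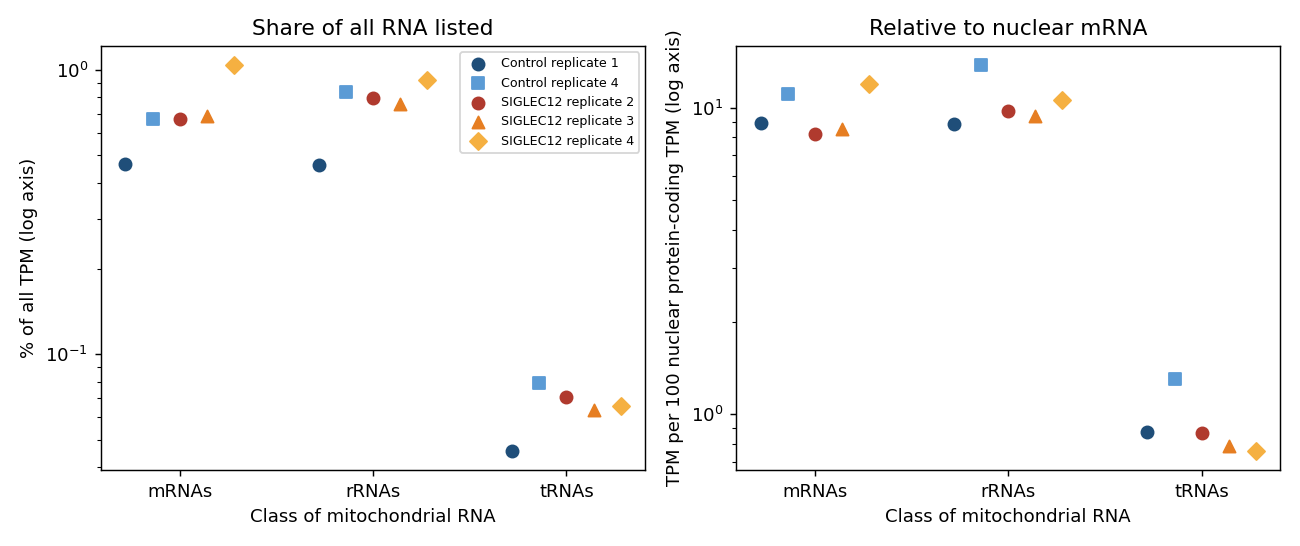
Summed TPM of the mitochondrial mRNAs, rRNAs and tRNAs in each of the 5 samples, as a percentage of all TPM (left, log axis) and per 100 TPM of nuclear protein-coding genes (right, log axis). On the left the SIGLEC12 samples lie above both Control samples for the mRNAs, from 0.673% to 1.04%. On the right the groups overlap for the mRNAs and rRNAs.

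The 2 mitochondrial rRNAs are the structural RNAs of the small and large ribosomal subunits of the organelle. The library kit named in the labels removes ribosomal RNA, mitochondrial included, so these values are what was left after depletion. mt-Rnr1, the small subunit RNA (chrM:70-1024), was at 2438 and 4465 TPM in Control and at 3712, 3334 and 4058 TPM in SIGLEC12. The SIGLEC12 samples lay between the Control samples, and the log2 fold change was 0.16 (limma adjusted p = 0.671, SE 0.28). mt-Rnr2, the large subunit RNA (chrM:1094-2675), was at 2205 and 3879 TPM in Control and at 4271, 4247 and 5156 TPM in SIGLEC12. All SIGLEC12 samples were above both Control samples, with a log2 fold change of 0.63 (limma adjusted p = 0.150, SE 0.27). Without Control replicate 4 the mt-Rnr2 change was 1.04, and without Control replicate 1 it was 0.23. The medians over all genes were then 0.52 and 0.26. After rescaling the changes were -0.40 (SE 0.24) for mt-Rnr1 and 0.07 (SE 0.23) for mt-Rnr2, and the groups overlapped for both.

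The 2 rRNAs lie side by side on the plus strand with only the tRNA mt-Tv between them, and their ratio does not depend on the scaling. mt-Rnr1 stood at 1.11 and 1.15 times the TPM of mt-Rnr2 in the Control samples. In the SIGLEC12 samples it stood at 0.869, 0.785 and 0.787 times. The small subunit RNA thus had the higher level of the pair in both Control samples and the lower level in all 3 SIGLEC12 samples, with means of 1.13 ± 0.0323 (SD, n = 2) and 0.814 ± 0.0481 (SD, n = 3). The ratio was chosen after its values were seen and carries no test. What the depletion step left of each rRNA was not tested.

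Among the 13 mRNAs, levels ranged widely although 12 of the genes share a strand. As deposited, mt-Atp8, a small ATP synthase subunit, had the highest mean at 1817 TPM and mt-Co2, a core subunit of complex IV, the lowest at 18.4 TPM. The low values of mt-Co2 and mt-Nd3 stood beside near-identical nuclear copies. On GRCm38 chromosome 1, 7 annotated pseudogenes span 4663 bases, all on the minus strand (chr1:24611535-24616197), and each matched a mitochondrial mRNA with at most 1 mismatch. Gm28661 was identical to mt-Co2 over 681 of its 684 bases, and Gm28437 to mt-Co3 over 783 of 784. Gm10925 was identical to mt-Atp6 over 678 of 681, Gm28438 matched mt-Nd3 with 1 mismatch over 345 bases, and Gm29216 matched a part of mt-Co1 with 1 mismatch over 483 bases. Reads from these stretches cannot be assigned to one copy with certainty, so the levels of these 5 mRNAs are uncertain. Gm28439 and Gm10222, which match a part of mt-Nd4 and mt-Nd4l without a mismatch, were listed at 0 in all 5 samples, while both mitochondrial genes were well detected. A further 8 matching entries on other chromosomes were at 0.863 TPM or lower.

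The ends of mt-Co2 (chrM:7637-7696) and Gm28661 (chr1:24614885-24614941, minus strand) show how little separates the pair. Capitals mark the bases of mt-Co2 that the pseudogene lacks.
mt-Co2: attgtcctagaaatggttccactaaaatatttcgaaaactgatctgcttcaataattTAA
Gm28661: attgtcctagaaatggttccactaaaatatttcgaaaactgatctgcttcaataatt
The first 23 bases of mt-Nd3 (chrM:9459-9481) and Gm28438 (chr1:24613097-24613119, minus strand) hold the only base in 345 that differs, in capitals. Counted from the first base of mt-Nd3, it is T3C.
mt-Nd3: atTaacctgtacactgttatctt
Gm28438: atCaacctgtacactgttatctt

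Adding the pseudogenes to their mitochondrial partners changed the order of the mRNAs. mt-Co2 was listed at 15.3 and 5.26 TPM in Control and at 27.4, 17.0 and 27.02 TPM in SIGLEC12, whereas Gm28661 was listed at 505.4 and 843.1 TPM and at 730.9, 727.1 and 1008 TPM. The mitochondrial entry held between 0.620% and 3.61% of their sum. For mt-Nd3 it held between 9.76% and 22.8%, for mt-Co3 between 17.0% and 26.8%, and for mt-Co1 between 62.8% and 71.3%. For mt-Atp6 the share was 80.4% to 90.04% in 4 samples and 55.5% in SIGLEC12 replicate 3. Gm10925 stood at 682.8 TPM in that sample and at most 231.5 TPM in the others. In all, the chromosome 1 copies were listed at 1768 and 3218 TPM in Control and at 3253, 4203 and 3867 TPM in SIGLEC12. Whether RNA of the chromosome 1 copies is present was not tested.

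**Figure D2:**
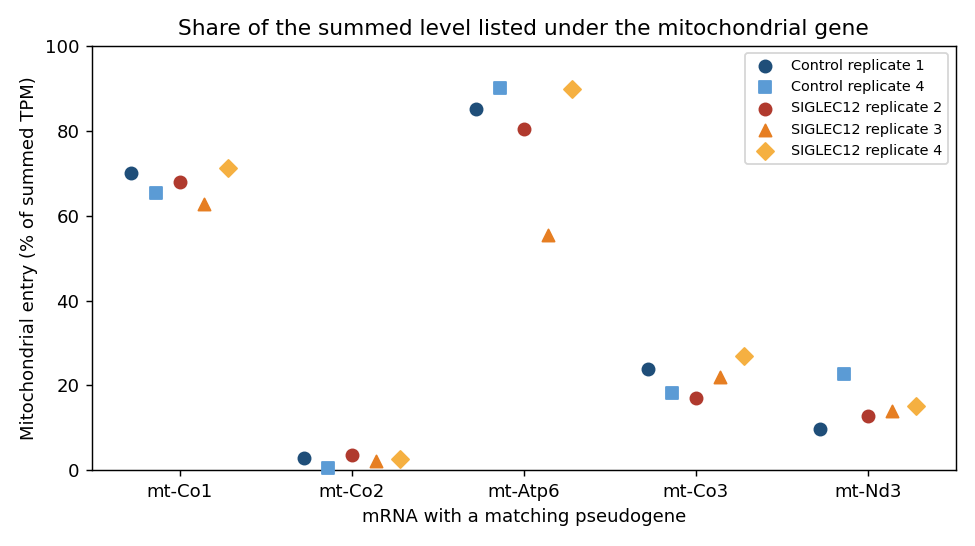
Share of the summed TPM of a mitochondrial mRNA and its matching pseudogenes that was listed under the mitochondrial gene, in each of the 5 samples (vertical axis, %). The share is under 4% for mt-Co2 in every sample, and for mt-Atp6 SIGLEC12 replicate 3 lies at 55.5%, below the other 4 samples.

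With the pseudogenes added, mt-Co1, a core subunit of complex IV, had the highest mean at 2401 TPM, followed by mt-Atp8 at 1817, mt-Co3 at 1443, mt-Atp6 at 1272 and mt-Co2 at 782.0 TPM. Complex I mRNAs filled most of the lower places, from mt-Nd4l at 688.8 TPM down to mt-Nd6 at 89.5 TPM. mt-Cytb, the only mitochondrial subunit of complex III, came to 351.3 TPM. Of the 12 pairs of neighbors in this order, 7 kept their order in all 5 samples. The pairs mt-Co1 and mt-Atp8, mt-Co3 and mt-Atp6, mt-Nd1 and mt-Nd3, mt-Nd3 and mt-Cytb, and mt-Nd2 and mt-Nd5 did not. The order also compares RNAs that share bases, since mt-Atp8 overlaps mt-Atp6 by 43 bases and mt-Nd4l overlaps mt-Nd4 by 7. In both pairs the shorter entry had the higher mean. mt-Atp8 has 204 bases against 681 of mt-Atp6, and mt-Nd4l has 297 against 1378 of mt-Nd4. The part of entry length in the order was not tested.

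**Figure D3:**
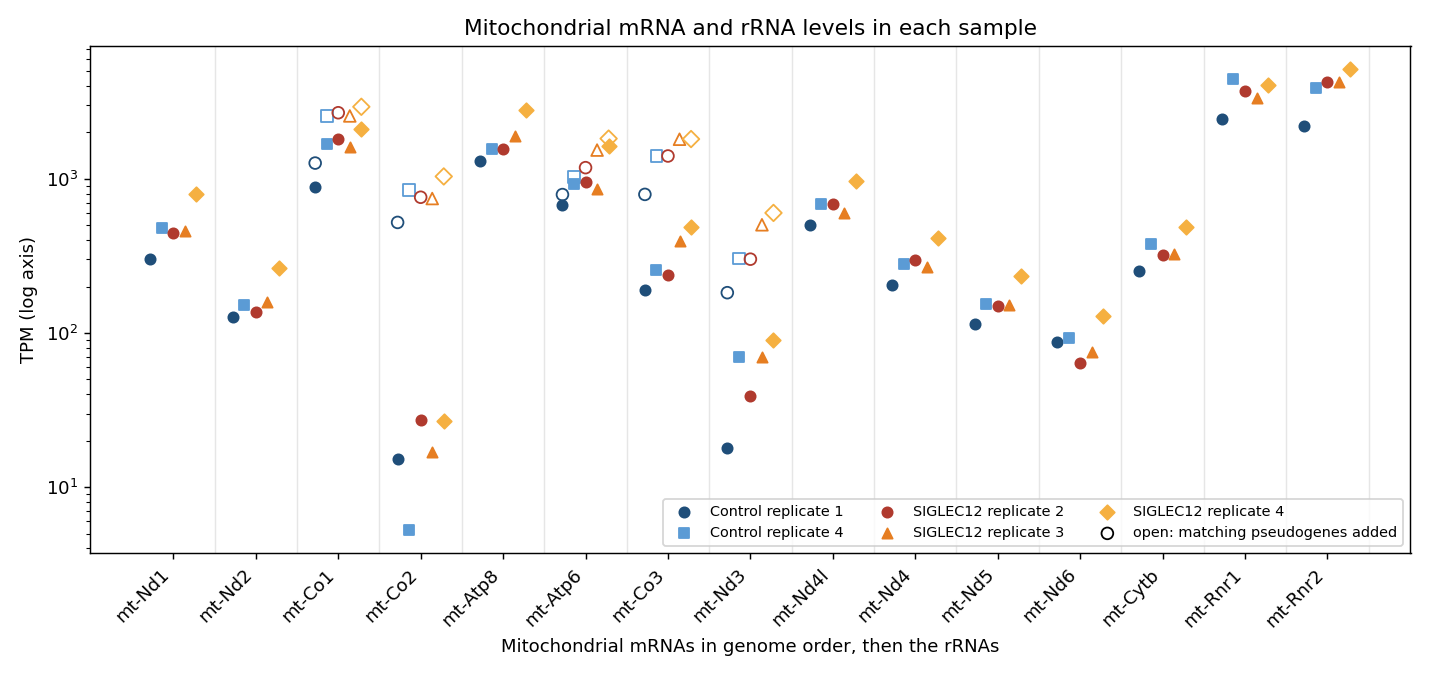
TPM of the 13 mitochondrial mRNAs and 2 rRNAs in each of the 5 samples (log axis). Filled points are the deposited levels and open points the sum with matching pseudogenes where that adds more than 5%. Adding them lifts mt-Co2 from 18.4 to 782.0 TPM on average, and Control replicate 1 is the lowest sample for most genes.

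Between the groups, 12 of the 13 mRNAs were higher on average in SIGLEC12 as deposited, and none passed the adjusted threshold. Their log2 fold changes ran from -0.07 to 1.27 with a median of 0.48, beside 0.38 over all genes tested. Which of the medians was higher depended on settings for low values, since that over all genes was 0.54 with a pseudocount of 0.1 and 0.60 with a filter of 5 TPM, whereas the mRNA median was 0.48 with each. The mRNA median was 0.18 without Control replicate 1 and 0.24 without SIGLEC12 replicate 4. Over all genes the medians were then 0.26 and 0.35, so the order depended on single samples too. With any other sample left out, the mRNA median was the higher one. Of the 13, 1 passed the unadjusted threshold as higher and 0 as lower, where 3.97% and 0.445% of all genes tested did. Groups did not overlap for 1 of the 13 as higher, against 54.1% of all genes. After rescaling, 4 of 13 were higher on average, beside 50.6% of all genes, and the median was -0.08, against 0.00 over all genes.

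The mRNA past the unadjusted threshold was mt-Co2, which differed by 1.27 on the log2 scale (SE 0.44, unadjusted p = 0.0264, limma adjusted p = 0.114). Its call was not kept once its pseudogenes were counted with it. The summed levels were 521.2 and 849.2 TPM in Control and 759.1, 744.6 and 1036 TPM in SIGLEC12, which overlap, and the log2 fold change became 0.33 (limma adjusted p = 0.417, SE 0.29). On the rescaled values with the pseudogenes added it was -0.23 (SE 0.25). As deposited and without Control replicate 4, its lowest sample, it was 0.58, which is under 2-fold. Without SIGLEC12 replicate 2 or 4 the unadjusted limma p was above the threshold, at 0.0672 and 0.0656.

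The other complex IV mRNAs showed smaller differences. mt-Co1 was at 886.3 and 1675 TPM in Control and at 1820, 1606 and 2091 TPM in SIGLEC12, with Control replicate 1 far below the rest (log2 fold change 0.59, SE 0.31, limma adjusted p = 0.209). Without Control replicate 4, the mt-Co1 change was 1.04, and without Control replicate 1 it was 0.13. mt-Co3 was at 189.9 and 255.1 TPM in Control and at 239.2, 396.3 and 485.9 TPM in SIGLEC12 (0.70, SE 0.36, limma adjusted p = 0.198). With the pseudogenes added, the mt-Co3 levels were 792.2 and 1401 TPM in Control against 1406, 1805 and 1811 TPM, where Control replicate 4 and SIGLEC12 replicate 2 were level. After rescaling, mt-Co1 and mt-Co3 differed by 0.03 and 0.14 on the log2 scale.

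The ATP synthase mRNAs are mt-Atp8 and mt-Atp6, which are read from 1 overlapping message. mt-Atp8 was at 1301 and 1564 TPM in Control and at 1554, 1889 and 2775 TPM in SIGLEC12 (log2 fold change 0.50, SE 0.28, limma adjusted p = 0.239). mt-Atp6 was at 672.8 and 928.7 TPM in Control and at 949.7, 852.9 and 1639 TPM in SIGLEC12 (0.48, SE 0.34, limma adjusted p = 0.321). Both pairs of groups overlapped. With the pseudogenes added, mt-Atp6 no longer overlapped and its change was 0.72 (SE 0.26, unadjusted p = 0.0296, limma adjusted p = 0.118), which was 0.16 after rescaling.

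Complex I, the entry point of electrons from NADH, takes 7 of its subunits from these mRNAs. Their log2 fold changes ran from -0.07 to 0.81, and the groups overlapped for all 7. mt-Nd1 was at 301.0 and 481.6 TPM in Control and at 442.8, 460.1 and 794.0 TPM in SIGLEC12. mt-Nd2 was at 127.0 and 151.8 TPM and at 137.2, 158.2 and 264.5 TPM. In both, SIGLEC12 replicate 4 was highest by a wide margin and the other SIGLEC12 samples lay close to Control replicate 4. mt-Nd3 was at 17.8 and 69.4 TPM in Control and at 38.8, 70.3 and 90.3 TPM in SIGLEC12, and with its pseudogene added at 182.5 and 304.3 TPM against 301.0, 503.2 and 600.7 TPM. Its change was 0.81 (SE 0.61) as deposited and 0.93 (SE 0.38, unadjusted p = 0.0477, limma adjusted p = 0.143) with the pseudogene. mt-Nd4l and mt-Nd4, which also share 1 message, were at 505.3 and 684.3 TPM against 688.0, 601.7 and 964.8 TPM, and at 204.5 and 278.5 TPM against 296.0, 267.9 and 410.4 TPM. mt-Nd5 was at 114.7 and 154.7 TPM in Control and at 149.5, 151.9 and 232.9 TPM in SIGLEC12. After rescaling, these changes lay between -0.23 and -0.04 except for mt-Nd3 at 0.27. mt-Cytb of complex III was at 251.1 and 379.2 TPM in Control and at 319.0, 323.4 and 483.8 TPM in SIGLEC12 (0.25, SE 0.31, limma adjusted p = 0.543). Rescaled, it differed by -0.30 (SE 0.27).

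mt-Nd6 (chrM:13552-14070) is the only mRNA of the minus strand, and it was the only mRNA that was not higher on average in SIGLEC12. It was at 86.8 and 92.7 TPM in Control and at 64.2, 75.5 and 128.3 TPM in SIGLEC12, with a log2 fold change of -0.07 (limma adjusted p = 0.882, SE 0.34). Its change was 0.13 without SIGLEC12 replicate 2 and 0.02 without SIGLEC12 replicate 3. After rescaling, all 3 SIGLEC12 samples lay below both Control samples, as 17% of all genes tested did, and the change was -0.62 (limma adjusted p = 0.483, SE 0.32). Set against the 12 plus-strand mRNAs with their pseudogenes, which needs no scaling, its log2 level was -6.20 and -6.73 in Control and -7.27, -7.19 and -6.78 in SIGLEC12. The groups did not overlap, but Control replicate 4 and SIGLEC12 replicate 4 were almost level. As a share of the summed mRNA with pseudogenes, mt-Nd6 took 1.35% and 0.933% in Control and 0.643%, 0.682% and 0.900% in SIGLEC12. The shares of mt-Cytb and mt-Co2, both of the plus strand, also lay below both Control samples in every SIGLEC12 sample. For mt-Cytb they were 3.898% and 3.815% in Control and 3.197%, 2.921% and 3.394% in SIGLEC12. The shares of the other mRNAs overlapped between the groups. mt-Nd6 overlaps mt-Nd5 by 14 bases on the opposite strand, and whether the counting used strand is not stated.

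The tRNAs were scarce in these libraries apart from mt-Tp. The reads were 100 bases long at each end, whereas the tRNAs span 59 to 75 bases, so a full-length read was longer than any tRNA. Within a sample, nearly all tRNA values were whole multiples of one step for a given length. Of 88 values that could be checked, 88 lay within 0.05 of a whole multiple, where the step was estimated from entries of that length, the tRNAs included. This is in part built in, since the step was fitted to these same values and some steps rested on a single entry. Of 358 values of other genes of the same lengths, 281 (78.5%) were whole on the same steps. The steps were 0.336 to 0.886 TPM, and that each stands for 1 read pair is an assumption. Under it, 75 of the 110 tRNA values rested on fewer than 10 read pairs and 15 were at 0. The intervals given below are exact 95% Poisson intervals, which cover counting error only.

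mt-Tp was at 337.3 and 655.1 TPM in Control and at 607.8, 566.3 and 544.0 TPM in SIGLEC12, from 421 to 1534 steps a sample. It made up 73.9% and 82.8% of all tRNA TPM in Control and 86.0%, 89.3% and 82.7% in SIGLEC12, so the summed tRNA level was mostly that of mt-Tp. Its groups overlapped, with a log2 fold change of 0.28 (limma adjusted p = 0.514, SE 0.32) that became -0.28 (SE 0.29) after rescaling. mt-Tp lies at the far end of the gene-bearing part of the genome. No other tRNA exceeded 52.1 TPM in any sample. Without mt-Tp, the other 21 tRNAs summed to 0.0119% and 0.0136% of TPM in Control and to 0.00994%, 0.00679% and 0.0114% in SIGLEC12, below both Control samples in each case. That gap was carried by mt-Te and mt-Ts1, which summed to 75.2 and 80.0 TPM in Control and to 23.3, 25.0 and 24.4 TPM in SIGLEC12. The remaining 19 tRNAs summed to 43.9 and 56.0 TPM in Control and to 76.1, 42.9 and 89.4 TPM in SIGLEC12, and the groups overlapped.

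**Figure D4:**
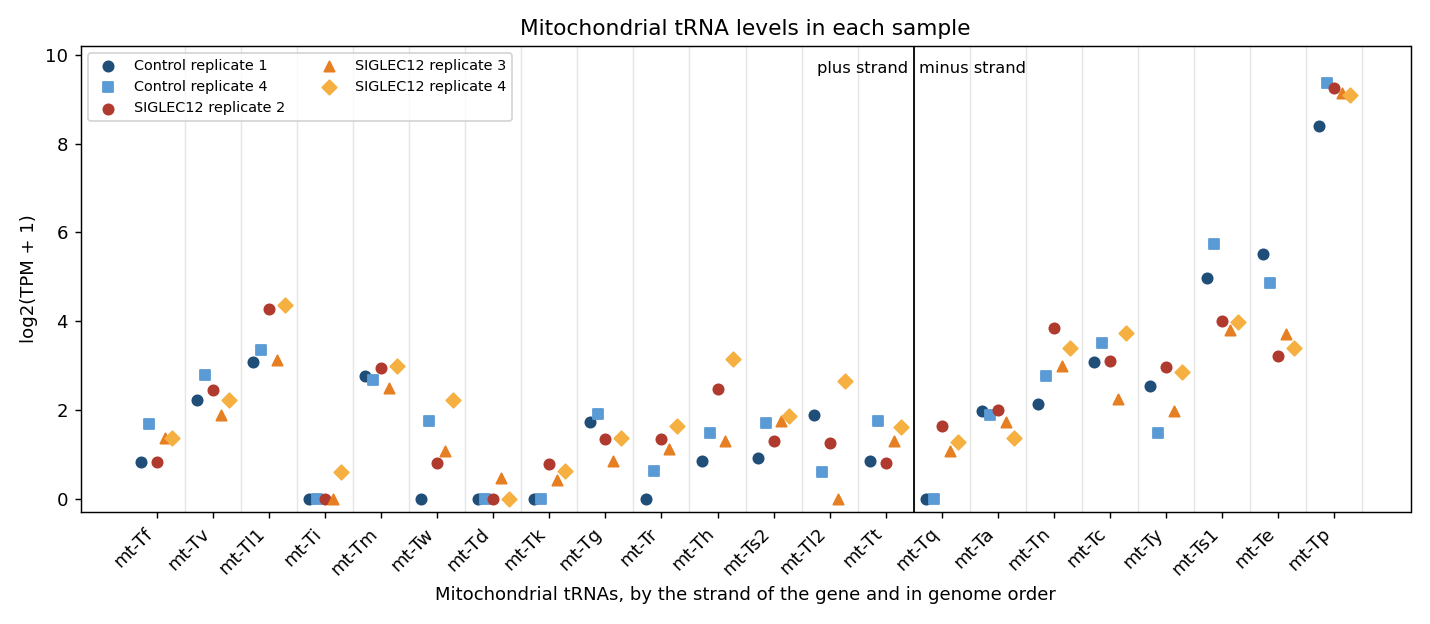
log2(TPM + 1) of the 22 mitochondrial tRNAs in each of the 5 samples, with plus-strand genes left of the vertical line and minus-strand genes right of it. mt-Tp stands far above the rest, both Control samples lie above all SIGLEC12 samples for mt-Te and mt-Ts1, and mt-Tq is at 0 in both Control samples.

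The filter of at least 1 TPM in at least 2 samples was passed by 19 of the 22 tRNAs. mt-Ti, mt-Td and mt-Tk did not pass it and never exceeded 1 step. Of the 19 tested, 11 were higher on average in SIGLEC12 and 8 lower, with a median log2 fold change of 0.09 against 0.38 over all genes. At the unadjusted threshold, 2 were higher (mt-Tq and mt-Tr) and 2 were lower (mt-Te and mt-Ts1), where 3.97% and 0.445% of all genes tested were. Groups did not overlap for 3 as higher and 3 as lower, against 54.1% and 1.67% of all genes. None of the 19 passed the adjusted threshold. A gene that passed the filter only through one group had to differ, which touches mt-Tq and mt-Tr.

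mt-Te, the glutamate tRNA, was at 44.5 and 27.9 TPM in Control and at 8.27, 12.1 and 9.56 TPM in SIGLEC12. These rested on 61 and 52 steps in Control and on 11, 31 and 18 in SIGLEC12. Every SIGLEC12 sample was below both Control samples. The counting interval of the lower Control sample was 20.9 to 36.6 TPM and that of the highest SIGLEC12 sample 8.22 to 17.2 TPM, which do not overlap. The log2 fold change was -1.74 (SE 0.28, unadjusted p = 0.000649, limma adjusted p = 0.0974), and -2.27 (SE 0.32) after rescaling. Without Control replicate 4 the change was -2.07. Relative to the 12 plus-strand mRNAs with their pseudogenes, mt-Te stood at a log2 level of -7.16 and -8.46 in Control and of -10.2, -9.83 and -10.5 in SIGLEC12. mt-Te adjoins mt-Nd6 on the same strand and lies opposite no annotated gene. Whether the counting used strand is not stated, so mt-Te and the other minus-strand genes may include RNA of the opposite strand.

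mt-Ts1, the serine tRNA that reads UCN codons, was at 30.7 and 52.1 TPM in Control and at 15.03, 12.9 and 14.9 TPM in SIGLEC12, on 42 and 97 steps and on 20, 33 and 28 steps. The SIGLEC12 samples were close to each other and below both Control samples. The counting interval of the lower Control sample was 22.1 to 41.5 TPM and those of SIGLEC12 reached at most 23.2 TPM, so the nearest 2 met. The log2 fold change was -1.43 (SE 0.28, unadjusted p = 0.00176, limma adjusted p = 0.0974), and -1.97 (limma adjusted p = 0.272, SE 0.23) after rescaling. Without Control replicate 4 the change was -1.06. Its gene ends where mt-Co1 ends on the opposite strand, with 3 bases in common. The limit on strand given for mt-Te applies here too. The serine tRNA of the plus strand, mt-Ts2, showed no such difference, at 0.886 and 2.25 TPM in Control and 1.49, 2.35 and 2.67 TPM in SIGLEC12 on at most 7 steps.

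The other tRNAs that the smallest p-values picked out rested on few read pairs. mt-Tq was listed at 0 in both Control samples and at 2.10, 1.10 and 1.44 TPM in SIGLEC12, which was 3 steps in each. Its log2 fold change of 1.33 (limma adjusted p = 0.0974, SE 0.22) depends on the pseudocount and is no bound. mt-Tr, the arginine tRNA, was at 0 and 0.549 TPM in Control and at 1.56, 1.20 and 2.11 TPM in SIGLEC12, on at most 4 steps (1.06, SE 0.26, limma adjusted p = 0.0974). mt-Tg, the glycine tRNA, was at 2.34 and 2.75 TPM in Control and at 1.56, 0.797 and 1.58 TPM in SIGLEC12, on at most 5 steps (-0.63, SE 0.21, limma adjusted p = 0.108). Without Control replicate 4, the changes of mt-Tq and mt-Tr were 1.33 and 1.38. The mt-Tr change was under 2-fold without Control replicate 1 (0.74) and without SIGLEC12 replicate 4 (0.93). For mt-Tq, mt-Tr and mt-Tg the counting intervals of neighboring samples of different groups overlapped widely, and a difference could not be shown at this depth. mt-Tn, the asparagine tRNA of the minus strand, was at 3.41 and 5.77 TPM in Control and at 13.3, 6.98 and 9.57 TPM in SIGLEC12, on 5 and 11 steps and on 19, 19 and 20 steps (0.96, SE 0.31, limma adjusted p = 0.107). After rescaling its groups overlapped, with a change of 0.49 (SE 0.29). mt-Tl1, the leucine tRNA that follows mt-Rnr2 and the highest of the plus strand, was at 7.44 and 9.24 TPM in Control and at 18.4, 7.67 and 19.7 TPM in SIGLEC12, where SIGLEC12 replicate 3 fell between the Control samples (0.71, SE 0.41, limma adjusted p = 0.239).

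By strand, neither group of tRNAs moved as a block. The 11 tested tRNAs of the plus strand had a median log2 fold change of 0.09 and ran from -0.63 to 1.15. The 8 of the minus strand had a median of 0.03 and ran from -1.74, at mt-Te, to 1.33, at mt-Tq, whose value depends on the pseudocount. Apart from mt-Tq, the highest on the minus strand was 0.96 at mt-Tn, below the 1.15 of mt-Th on the plus strand. After rescaling, the medians were -0.28 and -0.45. Of the 19 tRNAs, 7 then lay below both Control samples in all 3 SIGLEC12 samples, beside 17% of all genes. The 2 that lay above, where 15.2% of all genes did, were mt-Tq and mt-Tr, which passed the filter only through SIGLEC12, so nothing is read from that count. The 7 were mt-Te, mt-Ts1, mt-Tc and mt-Ta of the minus strand and mt-Tv, mt-Tm and mt-Tg of the plus strand. The unadjusted threshold was then passed as lower by mt-Te, mt-Ts1 and mt-Tg, where 1.42% of all genes passed it, and as higher by mt-Tq alone, where 0.348% did and where the same limit applies. The tRNAs not named with values, mt-Tf, mt-Tw, mt-Th, mt-Tl2, mt-Tt and mt-Ty among them, were at 12.3 TPM or lower in every sample.

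**Figure D5:**
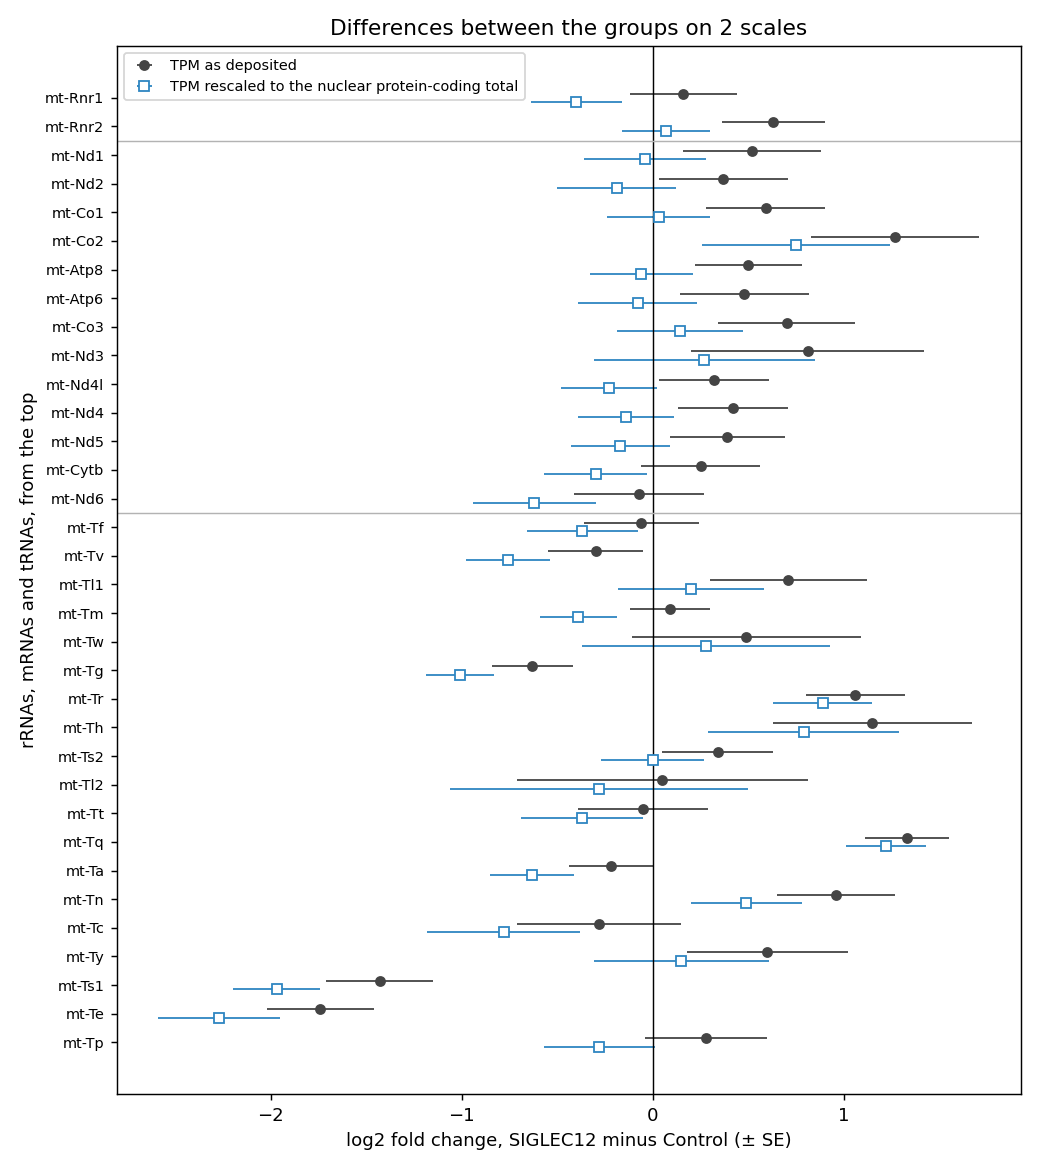
log2 fold change, SIGLEC12 minus Control, with its SE for the 34 members tested, from TPM as deposited (filled circles) and rescaled to the nuclear protein-coding total (open squares). Most mRNAs lie right of 0 as deposited and close to 0 or left of it after rescaling, while mt-Te and mt-Ts1 lie at -1.43 or lower on both scales.

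The nuclear genes that build the same complexes showed a different balance. Of 73 nuclear subunit genes of complexes I, III and IV and the ATP synthase, all tested, 73 were higher on average and 72 stood above both Control samples in every SIGLEC12 sample, beside 54.1% of all genes. Their median log2 fold change was 0.77, beside 0.48 for the 13 mitochondrial mRNAs and 0.38 for all genes. The median over all genes was 0.54 with a pseudocount of 0.1 and 0.60 with a filter of 5 TPM. That of the nuclear subunits was not computed with these settings. After rescaling the nuclear subunit median was 0.26, against -0.08 for the mitochondrial mRNAs. Of the 73, 37 then stood above both Control samples, beside 15.2% of all genes. At an unadjusted p of at most 0.05 with no limit on the fold, 64 of the 73 were higher as deposited, beside 33.4% of all genes, and 2 after rescaling, beside 4.21%. With at least 2-fold in addition, 4 of the 73 were higher as deposited, beside 3.97% of all genes, and 0 after rescaling. The 4 were Ndufc2 and Ndufb8 of complex I, Cox7c of complex IV and Usmg5 of the ATP synthase. Ndufc2 was at 6.37 and 8.43 TPM in Control and at 14.5, 18.8 and 18.1 TPM in SIGLEC12 (1.12, SE 0.23, limma adjusted p = 0.0974). Ndufb8, Cox7c and Usmg5 differed by 1.07, 1.05 and 1.13, and after rescaling the 4 differed by 0.50 to 0.61.

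The summed mitochondrial mRNAs stood at 4.23 and 4.70 times the summed nuclear subunit TPM in Control and at 3.10, 2.80 and 4.72 times in SIGLEC12. This ratio needs no scaling. SIGLEC12 replicates 2 and 3 lay below both Control samples, and SIGLEC12 replicate 4 lay above them. With the pseudogenes added the ratios were 5.84 and 6.95 in Control and 4.60, 4.51 and 6.47 in SIGLEC12, and the groups overlapped again. By complex, with pseudogenes, mitochondrial to nuclear TPM was 5.47 and 6.05 against 3.85, 3.68 and 6.17 for complex I. It was 1.69 and 2.01 against 1.18, 1.04 and 1.75 for complex III, 8.33 and 11.5 against 7.35, 6.85 and 9.21 for complex IV, and 5.69 and 5.55 against 3.90, 4.30 and 6.15 for the ATP synthase. In each complex SIGLEC12 replicates 2 and 3 were the 2 lowest samples.

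Nuclear genes that make or process the mitochondrial RNAs were also compared. Of 18 genes of mitochondrial transcription and replication, 9 were tested and all 9 were higher on average, with a median of 0.37 as deposited and 0.01 after rescaling. Of 39 genes that cut, modify or degrade mitochondrial RNA, 25 were tested, 24 were higher on average and the median was 0.38, or 0.00 after rescaling. Of 23 mitochondrial aminoacyl-tRNA synthetases, the enzymes that charge the tRNAs, 15 were tested, 13 were higher on average and the median was 0.31, or -0.04 after rescaling. As deposited, 0 genes of the 3 lists passed the unadjusted threshold in either direction, beside 3.97% higher and 0.445% lower of all genes. After rescaling, 0 were higher and 1, a synthetase, was lower, beside 0.348% and 1.42% of all genes. Of all genes tested, 87.2% were higher on average as deposited. Over all genes tested the medians were 0.38 and 0.00, so the 3 lists lay close to the background on both scales.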

How the data were processed

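Total RNA of 5 colon tumor samples was sequenced as paired reads of 100 bases. The authors deposited 1 table of log2 values, and undoing log2(x + 1) gave a sum of 999999 to 1000001 for every sample, so the values were log2(TPM + 1). Per the labels, kallisto 0.45.0 and GRCm38 were used. The study's methods name another kallisto version, a human reference and an mRNA kit, and technical replicate libraries whose averaging is not stated. TPM keeps no depth, so only the steps of short entries bear on it. The series' design text speaks of 3 mice for either condition, and 2 of the Control group were analysed here.

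Genes with TPM of at least 1 in at least 2 samples (10338) entered 1 fit (limma 3.58.1 under R 4.3.3, lmFit, eBayes with trend) on log2(TPM + 1), with Benjamini-Hochberg adjustment over all of them. A pseudocount of 1 understates changes of low genes. Thresholds were an adjusted p under 0.05, or an unadjusted p of at most 0.05, each with at least 2-fold. Coordinates, lengths and sequences came from GENCODE M21 (98.3% of gene identifiers and all 37 members matched). Pseudogenes matching a member over at least 90% of their own length at no less than 90% identity were found with blastn 2.17.0. Their TPM was added to the member in an alternative chosen after seeing the data. Values per sample are given for the rRNAs, the mRNAs, and the tRNAs with the 6 smallest p or 4 highest means, and for nuclear genes past the unadjusted threshold, at most 6 a list. The members and lists were chosen with earlier results of these data known.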

Additional observations from a re-analysis of the deposited data

How the results depend on the processing

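No paired analysis was run because no pairing of Control and SIGLEC12 mice is stated. Depth limits most tRNA values to a few steps, and with 2 Control samples any result leans on each of them. Without Control replicate 4, 962 genes were higher and 97 lower past the adjusted threshold, among them mt-Te, mt-Ts1, mt-Tq, mt-Tr, mt-Rnr2 and mt-Co1. A lone Control sample is assumed to vary like the SIGLEC12 samples. Leaving out 1 sample at a time gave 0 to 962 higher and 0 to 97 lower genes past the adjusted threshold, and 143 to 1366 higher and 51 to 146 lower past the unadjusted one (main 410 and 46). Higher and lower genes past the unadjusted threshold numbered 36 and 147 after rescaling to the nuclear protein-coding total, 46 and 139 with median-ratio size factors, 45 and 131 after quantile normalization, and 36 and 148 rescaled with pseudogenes added. A pseudocount of 0.1 gave 1087 higher, and a filter of 5 TPM gave 19 lower. The cause was not tested.

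The median log2 fold changes after rescaling and with median-ratio factors were -0.08 and -0.09 for the mRNAs (-0.14 rescaled with pseudogenes added), -0.16 and -0.17 for the rRNAs (-0.22 by quantiles) and -0.45 and -0.46 for the minus-strand tRNAs. With median-ratio factors it was -0.31 for all tRNAs. With 1 sample left out, the mRNA median ran from 0.18 to 0.63 and the rRNA median from -0.02 to 0.82. The log2 ratio of mean shares, SIGLEC12 to Control, was 0.49 for mRNA, 0.10 for tRNA and 0.35 for rRNA. Without the 4 most abundant entries of the table it was -0.04, -0.41 and -0.16, and within the protein-coding total -0.06, -0.43 and -0.18. With 1 sample left out it ran from 0.25 to 0.77 for mRNA, from -0.25 to 0.55 for tRNA and from -0.01 to 0.83 for rRNA.

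Of 311 values for single members under an alternative, 265 kept their direction and their side of the adjusted threshold, and 40 changed direction. The remaining values came from the fit without Control replicate 4, where a lone Control sample is assumed to vary like the SIGLEC12 samples. mt-Te, mt-Ts1, mt-Tg and mt-Tn kept their direction in every alternative run. So did mt-Tq and mt-Tr, but both passed the filter only through SIGLEC12. mt-Tq, at 0 in both Control samples, could not turn, so nothing is read from this. After rescaling and with median-ratio factors, the log2 fold changes that turned were -0.40 and -0.40 for mt-Rnr1, -0.04 and -0.05 for mt-Nd1, -0.19 and -0.20 for mt-Nd2, -0.06 and -0.07 for mt-Atp8, -0.08 and -0.09 for mt-Atp6, -0.23 and -0.24 for mt-Nd4l, -0.14 and -0.14 for mt-Nd4, -0.17 and -0.18 for mt-Nd5, -0.30 and -0.31 for mt-Cytb, and -0.28 and -0.28 for mt-Tp. Quantile normalization turned mt-Rnr1 (-0.57), mt-Nd2 (-0.21), mt-Nd5 (-0.15) and mt-Cytb (-0.09). Rescaling with pseudogenes added turned mt-Co2 (-0.23) but not mt-Atp6 (0.16), and gave the same values as rescaling for the others that turned. With 1 sample left out, changes ran from -0.28 to 0.60 for mt-Rnr1, -0.14 to 1.76 for mt-Nd3, -0.36 to 0.13 for mt-Nd6, -0.04 to 0.55 for mt-Cytb and -0.20 to 0.76 for mt-Tp, and the negative values of mt-Rnr1, mt-Nd3, mt-Cytb and mt-Tp came without Control replicate 1.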
